A study of Cricetulus griseus with 6 samples.

Results

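The Rab genes of CHO-T cells were examined before and after silencing of *Xbp1*. A gene was taken as a member when its symbol was Rab followed by a number and, at most, 1 letter and 1 digit, and when its mean over all libraries was at least 0.1 FPKM (sequenced fragments scaled to the exon length of a gene and to the mapped reads of its library). Of 56 such symbols among the 27873 entries of the deposited data, 41 passed this minimum. These 41 are the genes described here, and 14361 entries in all passed. The CHO-T line derives from Chinese hamster ovary cells and carries the cDNA of mouse T-cadherin (*Cdh13*), brought in by a retrovirus and driven by its promoter, and all libraries share this transgene. The comparison has 3 libraries of cells transfected with negative control siRNA and 3 of cells transfected with *Xbp1* siRNA. Cells were harvested on the second day after transfection, and stranded mRNA libraries were sequenced from total RNA. The labels do not say whether the libraries of a group come from separate cultures, so the p-values measure only the spread between these libraries. A single siRNA sequence was used against *Xbp1*.

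Rab proteins are small GTPases that mark the membranes of transport vesicles and organelles. In the GTP form a Rab protein sits on a membrane through its prenyl groups and binds effectors, which tether, move or fuse vesicles. Exchange factors (GEFs) load GTP, GTPase activating proteins (GAPs) bring about its hydrolysis, and GDP dissociation inhibitors return the GDP form through the cytosol. Each step between the endoplasmic reticulum (ER), the Golgi, endosomes, lysosomes and the plasma membrane has its own Rab proteins, and several of them have been linked to the release of extracellular vesicles. The transcription factor XBP1 is made after its mRNA is spliced by IRE1α under ER stress, and it raises genes of the ER and of the secretory pathway. The 41 genes were placed by hand on 1 route each: 9 on the ER-Golgi route, 21 on the endosomal route, 8 on the route of secretion and 3 elsewhere. Several Rab proteins act on more than 1 route.

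*Xbp1* itself was checked first. It was at 26.0, 26.2 and 28.4 FPKM with control siRNA and at 2.18, 2.11 and 1.39 FPKM with *Xbp1* siRNA, a reduction of 93.0% (log2 fold change −3.78, standard error 0.16, adjusted p = 5.61e-06, limma). *Cdh13*, whose hamster entry can take reads of the mouse transgene, had a mean of 85.2 FPKM with control siRNA and 32.9 FPKM with *Xbp1* siRNA. Per the paper, no T-cadherin expression beyond the transgene could be detected in CHO-T cells. The labels give ovary as the tissue of the line. The mesenchymal marker *Vim* lay between 296 and 389 FPKM and *Amh*, a granulosa cell gene, between 2.07 and 3.55 FPKM, while *Fshr*, the receptor that defines granulosa cells, and the leukocyte marker *Ptprc* were listed at 0 in all 6 libraries. The columns summed to between 593487 and 666267 FPKM, with a mean of 655927 for control siRNA and 597243 for *Xbp1* siRNA. Steps in the FPKM of low genes gave the depth of each library relative to control replicate 1, from 94.0% to 102% in 4 of the others and 116% in *Xbp1* siRNA replicate 3.

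The 41 Rab genes spanned more than 2 orders of magnitude. With control siRNA, 9 genes were above 100 FPKM, 21 lay between 10 and 100 FPKM and 11 lay under 10 FPKM, 4 of these under 1 FPKM. The 8 highest genes held 55.3% of the summed Rab FPKM. *Rab14*, which acts between the Golgi and endosomes, was highest with 203 ± 5.16 FPKM (SD, n = 3). *Rab34*, a regulator of lysosome position and of cilia, followed with 199 ± 5.51 FPKM (SD, n = 3), and the libraries of the pair overlapped. The early endosomal *Rab5c* with 179 ± 4.56 FPKM (SD, n = 3) was next, below both in every control library. *Rab18* with 159 ± 11.8 FPKM, *Rab1a* with 155 ± 11.8 FPKM and *Rab31* with 145 ± 2.39 FPKM (SD, n = 3 each) came after it. The ranges of neighbours from *Rab18* to *Rab7a*, which had 142 ± 2.48 FPKM (SD, n = 3), overlapped, but their order was the same in every control library. Their differences were not tested. At the other end, *Rab27a*, *Rab30*, *Rab27b* and *Rab37* had control means under 1 FPKM.

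**Figure D1:**
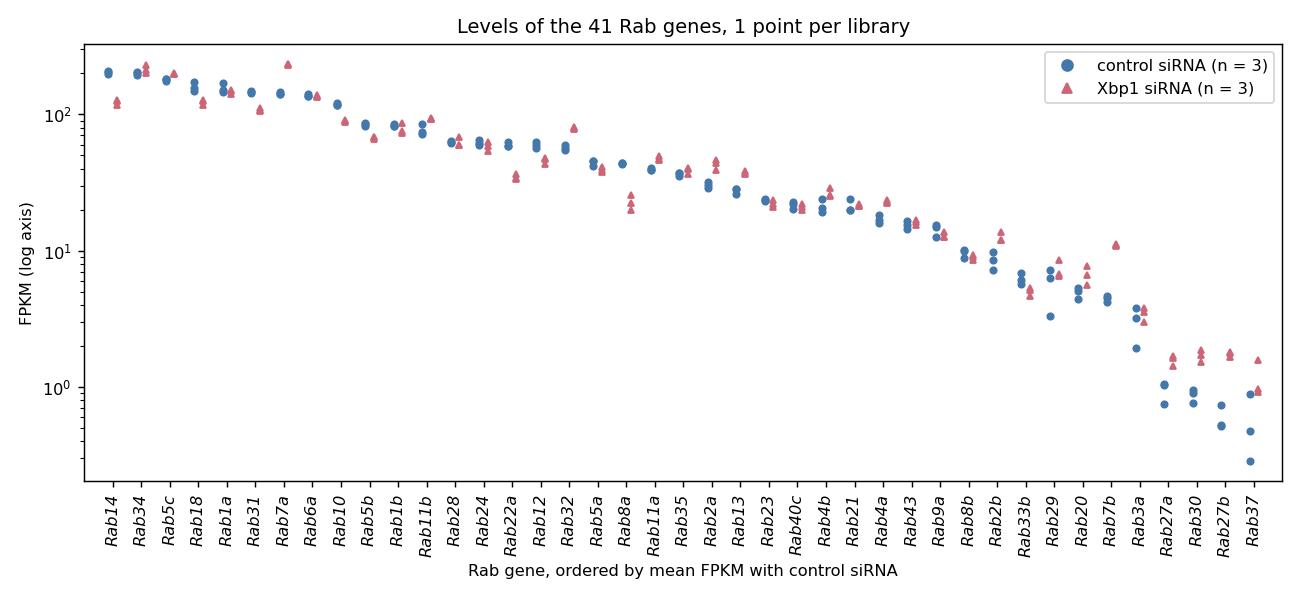
FPKM (log axis) of the 41 Rab genes in each library, ordered by the mean with control siRNA, with circles for control siRNA (n = 3) and triangles for *Xbp1* siRNA (n = 3). *Rab14* and *Rab34* lead with control siRNA, while the 3 triangles of *Rab7a*, from 229 to 235 FPKM, stand above those of *Rab14*, from 117 to 126 FPKM.

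The order at the top was different with *Xbp1* siRNA. *Rab7a* moved from rank 7 to rank 1, while *Rab14* moved from rank 1 to rank 7. *Rab34* and *Rab5c* held ranks 2 and 3 in both conditions. Levels of different genes are compared here only as FPKM, which is per length of exon.

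After *Xbp1* silencing, 24 of the 41 Rab genes passed an adjusted p of 0.05 (58.5%, limma on log2(FPKM + 0.1)), against 40.4% of all genes tested. Of these, 15 were higher, where 20.2% of all genes were, and 9 were lower, where again 20.2% of all genes were. The other 17 did not pass. In FPKM, 26 of the 41 genes had groups of libraries that did not overlap, against 51.8% of all genes. The median log2 fold change of the Rab genes was 0.06 and that of all genes tested was 0.01. In the study's methods a gene also needed a log2 fold change of at least 1 in size. By that limit, which 5.19% of all genes passed in either direction, *Rab7b* and *Rab27b* were higher (2.69% of all genes were) and 0 Rab genes were lower by limma (2.5% of all genes were). In bulk RNA, fewer cells that express a gene and less of its RNA in each cell cannot be told apart.

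**Figure D2:**
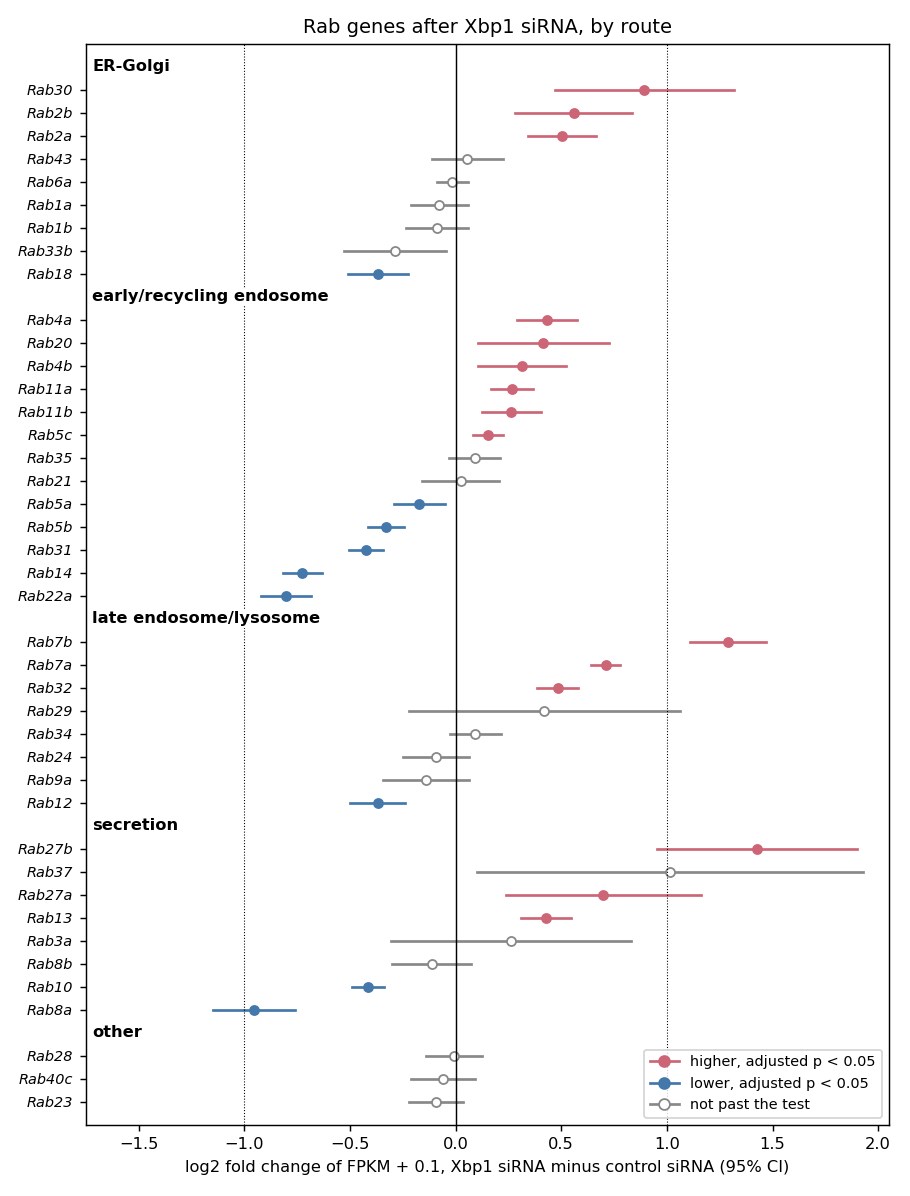
Log2 fold change of FPKM + 0.1, *Xbp1* siRNA minus control siRNA, of each Rab gene with its 95% confidence interval, grouped by route, with filled points for genes at an adjusted p under 0.05 (limma) and dotted lines at a log2 fold change of 1 in either direction. Each of the 3 large routes holds genes on both sides of 0, from *Rab8a* at −0.95 to *Rab27b* at 1.43.

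*Rab7a*, *Rab7b* and *Rab32* rose on the late endosomal route. It has 8 genes that act at late endosomes, lysosomes and autophagosomes, of which 3 rose, 1 fell and 4 did not pass (50% past the test, against 40.4% of all genes), with a median log2 fold change of 0.26. *Rab7a*, which directs late endosomes to fusion with lysosomes, was at 141, 140.1 and 145 FPKM with control siRNA and at 229, 235 and 234 FPKM with *Xbp1* siRNA. The groups stood far apart relative to their spread. Its log2 fold change was 0.71 (standard error 0.03, 95% confidence interval 0.64 to 0.78, adjusted p = 4.63e-06, limma), on 2587, 2412 and 2600 recovered reads with control siRNA and 4298, 4218 and 4982 with *Xbp1* siRNA.

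*Rab7b*, a relative of *Rab7a* that acts in transport from late endosomes to the trans-Golgi network, rose in proportion more from a far lower level. It was at 4.18, 4.45 and 4.64 FPKM with control siRNA and at 11.2, 10.9 and 10.7 FPKM with *Xbp1* siRNA, without overlap. The ratio of the means was 2.48, and the log2 fold change was 1.29 (standard error 0.08, interval 1.11 to 1.47, adjusted p = 2.11e-05, limma). *Rab32*, which serves lysosome-related organelles, rose from 56.2, 54.8 and 59.3 FPKM to 80.8, 78.1 and 79.2 FPKM (log2 fold change 0.48, adjusted p = 9.84e-05, limma). These 3 genes kept their direction and stayed past the test under each alternative that was run.

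*Rab12*, which sends receptors from recycling endosomes to lysosomes, went the other way. Its values were 57.0, 59.3 and 62.2 FPKM with control siRNA against 47.2, 48.0 and 43.0 FPKM with *Xbp1* siRNA, and its log2 fold change was −0.37 (adjusted p = 0.00155, limma). *Rab34*, the second highest of the family, overlapped between the groups, at 204, 201 and 193 FPKM against 229, 201 and 210.0 FPKM, and its log2 fold change of 0.09 (standard error 0.05) had an interval from −0.03 to 0.21 (adjusted p = 0.191, limma). With quantile normalization it was 0.23 (adjusted p = 0.00556, limma), and with equal sums of FPKM per library also 0.23. *Rab9a*, which returns mannose 6-phosphate receptors to the Golgi, was at 12.7, 15.4 and 14.99 FPKM against 12.6, 12.7 and 13.7 FPKM, with a log2 fold change of −0.14 (standard error 0.09, interval −0.34 to 0.06, adjusted p = 0.244, limma). Without control replicate 1 it was −0.23, with an adjusted p of 0.0412 (limma). For the autophagy-linked *Rab24* the log2 fold change was −0.09. *Rab29*, a partner of the kinase LRRK2, spread widely, from 3.34 to 7.26 FPKM with control siRNA and from 6.50 to 8.52 FPKM with *Xbp1* siRNA, and the interval of its log2 fold change ran from −0.22 to 1.06 (adjusted p = 0.268, limma).

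On the route of secretion *Rab27a*, *Rab27b* and *Rab13* rose, and *Rab8a* and *Rab10* fell. Of its 8 genes, 62.5% passed (40.4% of all genes did) and 3 did not, and the median log2 fold change was 0.34. *Rab27a* and *Rab27b* dock secretory granules and multivesicular endosomes at the plasma membrane, the step before exosomes are released. *Rab27b* was at 0.523, 0.736 and 0.518 FPKM with control siRNA and at 1.80, 1.77 and 1.66 FPKM with *Xbp1* siRNA. These values rest on 34, 45 and 33 reads against 120, 113 and 125 reads, with no overlap. The log2 fold change was 1.43 (standard error 0.20, interval 0.95 to 1.90, adjusted p = 0.00115, limma), and 0.79 with a pseudocount of 1 in place of 0.1, which takes it under the limit of 1.

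*Rab27a* had 0.745, 1.04 and 1.05 FPKM with control siRNA and 1.62, 1.69 and 1.43 FPKM with *Xbp1* siRNA. The groups did not overlap, and the log2 fold change was 0.70 (standard error 0.20, interval 0.24 to 1.16, adjusted p = 0.0253, limma), or 0.41 with a pseudocount of 1. Leaving out 1 library left its direction the same but took away the call in 3 cases. The log2 fold change was 0.55 without control replicate 1 (adjusted p = 0.0591), 0.68 without *Xbp1* siRNA replicate 1 (adjusted p = 0.0734) and 0.65 without *Xbp1* siRNA replicate 2 (adjusted p = 0.079, limma). *Rab37*, known from the granules of secretory cells and the lowest of the 41 genes, was at 0.890, 0.473 and 0.284 FPKM against 1.57, 0.964 and 0.910 FPKM. Its groups did not overlap, but the spread within each was wide, and the log2 fold change of 1.02 (standard error 0.39, interval 0.10 to 1.93) missed the limit with an adjusted p of 0.0752 (limma), and with a pseudocount of 1 the change was 0.48. That p was 0.0226 without control replicate 1, 0.0292 with the replicate number as a block and 0.044 with equal sums of FPKM per library (limma). *Rab13*, which delivers cargo to cell junctions, rose from 28.4, 26.0 and 28.5 FPKM to 36.5, 36.9 and 38.1 FPKM (log2 fold change 0.43, adjusted p = 5.04e-04, limma).

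The largest decrease in the family was that of *Rab8a*, which carries cargo from the trans-Golgi network and recycling endosomes to the plasma membrane. It was at 43.2, 44.0 and 44.2 FPKM with control siRNA and at 20.0, 22.5 and 25.5 FPKM with *Xbp1* siRNA, on 640, 613 and 642 reads against 304, 327 and 439 reads. The control libraries agreed closely, while those with *Xbp1* siRNA were more spread. The log2 fold change was −0.95 (standard error 0.08, interval −1.15 to −0.76, adjusted p = 1.14e-04, limma), and −1.04 without *Xbp1* siRNA replicate 3. *Rab10*, which moves vesicles to the basolateral membrane and the glucose transporter GLUT4 to the cell surface, fell from 117, 121 and 118 FPKM to 87.4, 90.6 and 88.9 FPKM. Its log2 fold change was −0.41 (standard error 0.03, interval −0.49 to −0.34, adjusted p = 6.36e-05, limma). *Rab8b* had a log2 fold change of −0.11 (interval −0.30 to 0.07) and *Rab3a*, the synaptic vesicle Rab, one of 0.26 (interval −0.30 to 0.83), and neither passed.

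**Figure D3:**
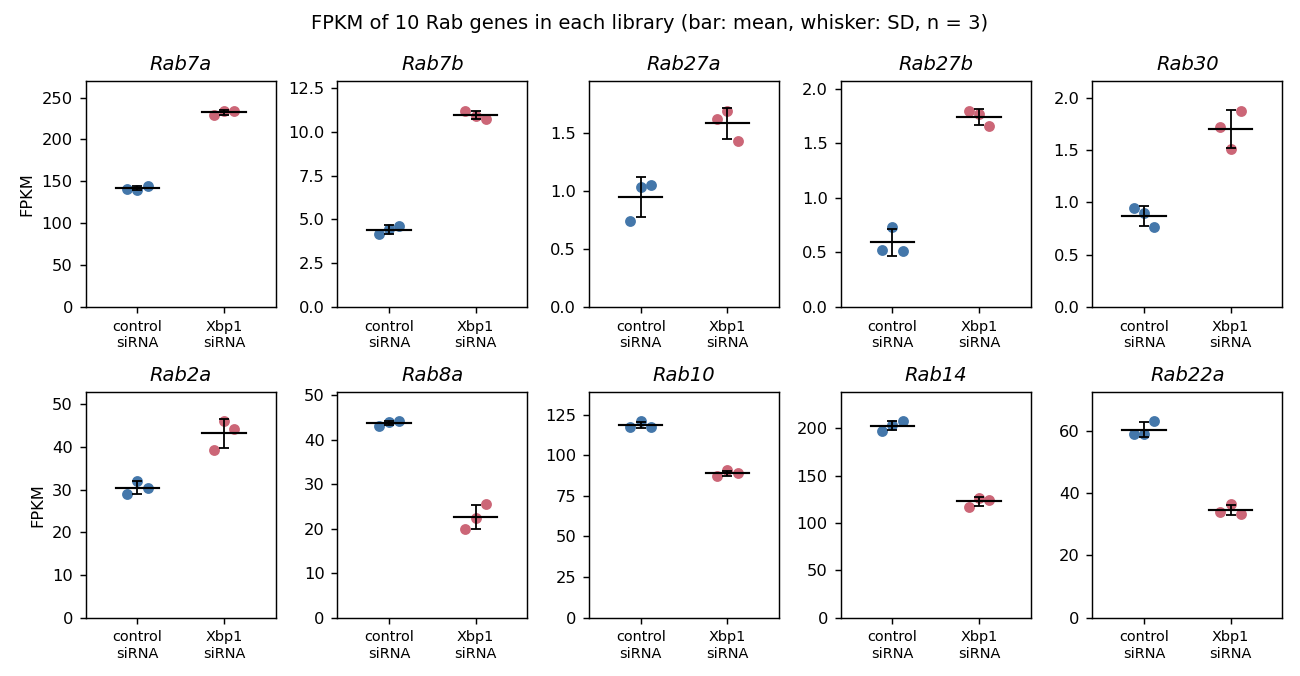
FPKM of 10 Rab genes in each library, with the mean as a bar and the SD as a whisker (n = 3 per group), each panel starting at 0. In each panel the 3 libraries with *Xbp1* siRNA lie on 1 side of the 3 control libraries, above them for *Rab7a*, *Rab7b*, *Rab27a*, *Rab27b*, *Rab30* and *Rab2a* and below them for *Rab8a*, *Rab10*, *Rab14* and *Rab22a*.

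Early and recycling endosomes have 13 of the genes, and 6 rose, 5 fell and 2 did not pass (84.6% past the test, against 40.4% of all genes). Their median log2 fold change was 0.09, so the changes lay on both sides of 0. The 2 largest were decreases. *Rab22a*, which acts at early endosomes and in recycling, was at 58.8, 58.8 and 63.0 FPKM with control siRNA and at 33.8, 36.3 and 33.3 FPKM with *Xbp1* siRNA (log2 fold change −0.80, standard error 0.05, interval −0.92 to −0.69, adjusted p = 2.38e-05, limma). It rests on 1426, 1341 and 1497 reads against 840, 864 and 939 reads. *Rab14* fell from 197, 204 and 208 FPKM to 117, 126 and 125 FPKM, with a log2 fold change of −0.72 (standard error 0.04, interval −0.82 to −0.63, adjusted p = 1.41e-05, limma). *Rab31*, a relative of *Rab22a* that serves transport between the trans-Golgi network and endosomes, fell from 145, 142 and 147 FPKM to 107, 111 and 105 FPKM (log2 fold change −0.42, adjusted p = 7.18e-05, limma). The groups of these 3 genes did not overlap.

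The genes of the *Rab5* type, which govern the fusion of early endosomes, did not move together. *Rab5b* fell from 85.6, 81.9 and 86.6 FPKM to 66.4, 68.0 and 67.8 FPKM (log2 fold change −0.33, adjusted p = 3.33e-04, limma). *Rab5c*, the most abundant of the 3, rose from 183, 181 and 174 FPKM to 199.7, 198.9 and 199.2 FPKM (log2 fold change 0.15, standard error 0.03, interval 0.08 to 0.22, adjusted p = 0.00604, limma). *Rab5a* was at 41.6, 45.4 and 45.6 FPKM against 39.0, 40.7 and 38.0 FPKM, a log2 fold change of −0.17 (standard error 0.05, interval −0.29 to −0.05, adjusted p = 0.0336, limma), and it lost significance under 7 of the alternatives. Among these were the fits without control replicate 2 or 3 and without *Xbp1* siRNA replicate 1 or 3, with adjusted p from 0.084 to 0.109 (limma). With equal sums of FPKM per library its change was −0.04 (adjusted p = 0.66), that of *Rab5b* −0.19 and that of *Rab5c* 0.29, and with quantile normalization that of *Rab5a* was −0.12 (adjusted p = 0.121, limma) and that of *Rab5c* 0.29.

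Genes of the *Rab11* and *Rab4* types, which act in recycling to the cell surface, were higher. *Rab11a*, which acts in slow recycling and has been linked to exosome release, rose from 39.2, 40.5 and 39.3 FPKM to 49.7, 47.3 and 46.3 FPKM (log2 fold change 0.27, standard error 0.04, interval 0.17 to 0.37, adjusted p = 0.00196, limma). *Rab11b* rose from 84.6, 72.3 and 74.7 FPKM to 93.8, 92.2 and 91.7 FPKM (log2 fold change 0.26, adjusted p = 0.0097, limma). *Rab4a*, of the fast recycling route, rose from 18.2, 16.7 and 15.96 FPKM to 23.4, 22.5 and 22.8 FPKM (log2 fold change 0.43, adjusted p = 0.0011, limma). *Rab4b*, whose log2 value was higher by 0.32 (adjusted p = 0.0257, limma), and *Rab20*, a phagosome Rab, with 0.41 (adjusted p = 0.0405, limma) also rose, but lost significance under 5 and 8 of the alternatives. Those of *Rab4b* include the fits without control replicate 2 or 3 and without *Xbp1* siRNA replicate 1 or 2, where limma gave adjusted p from 0.0511 to 0.0811. Those of *Rab20* include each fit that left out 1 library except that without *Xbp1* siRNA replicate 2 (adjusted p from 0.0536 to 0.119, limma). *Rab35*, a recycling Rab linked to exosome docking, was at 36.9, 37.3 and 35.5 FPKM against 39.7, 40.6 and 36.5 FPKM, and its groups overlapped (log2 fold change 0.09, standard error 0.05, interval −0.03 to 0.21, adjusted p = 0.209, limma), while with equal sums of FPKM per library the change was 0.22 (adjusted p = 0.0114, limma). For *Rab21*, which takes up integrins, the log2 fold change was 0.02 (interval −0.16 to 0.20).

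The ER-Golgi route carries newly made proteins out of the ER. Of its 9 genes, 3 rose, 1 fell and 5 did not pass (44.4% past the test, near the 40.4% of all genes), with a median log2 fold change of −0.02. *Rab1a* and *Rab1b*, which tether ER-derived vesicles to the Golgi, did not pass. *Rab1a* was at 146, 152 and 168 FPKM with control siRNA and at 142, 148 and 152 FPKM with *Xbp1* siRNA, and the log2 fold change was −0.08 (standard error 0.06, interval −0.21 to 0.06, adjusted p = 0.333, limma). *Rab1b* was at 84.8, 81.9 and 81.5 FPKM against 85.9, 72.7 and 75.4 FPKM, a log2 fold change of −0.09 (standard error 0.06, interval −0.24 to 0.06, adjusted p = 0.308, limma). Without *Xbp1* siRNA replicate 1 it was −0.16, with an adjusted p of 0.026 (limma). The groups overlapped for both.

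*Rab6a*, which acts in transport through and back from the Golgi, had the narrowest interval of these, −0.09 to 0.06, around a change of −0.02 on the log2 scale (standard error 0.03, adjusted p = 0.732, limma). Its levels were 137, 136 and 139.8 FPKM with control siRNA and 133, 139 and 136 FPKM with *Xbp1* siRNA, and they overlapped. With each library scaled to an equal sum of FPKM its log2 fold change was 0.12 (adjusted p = 0.0268, limma). The changes on this route were in *Rab2a* and *Rab2b*, which act between the ER and the Golgi, in *Rab30*, a Golgi Rab, and in *Rab18*, which acts at the ER and at lipid droplets.

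*Rab2a* rose from 28.9, 31.9 and 30.4 FPKM to 39.3, 46.0 and 44.2 FPKM (log2 fold change 0.50, standard error 0.07, interval 0.34 to 0.66, adjusted p = 9.66e-04, limma). *Rab2b* rose from 7.17, 8.60 and 9.75 FPKM to 11.97, 13.6 and 11.9 FPKM (log2 fold change 0.56, standard error 0.12, interval 0.28 to 0.84, adjusted p = 0.00789, limma). *Rab30* rose from 0.949, 0.900 and 0.762 FPKM to 1.72, 1.51 and 1.88 FPKM (log2 fold change 0.89, standard error 0.18, interval 0.47 to 1.32, adjusted p = 0.00628, limma), or 0.53 with a pseudocount of 1. Their groups did not overlap, and *Rab30* had by far the lowest level on the route. *Rab18* fell from 148, 156 and 172 FPKM to 116, 127 and 125 FPKM (log2 fold change −0.37, adjusted p = 0.00232, limma). *Rab33b*, which recruits an autophagy complex to membranes, had a log2 fold change of −0.29 and missed the limit with an adjusted p of 0.0609 (limma), which was 0.037 with quantile normalization and 0.0465 with the minimum at 1 FPKM, and the Golgi gene *Rab43* had one of 0.06. The 3 genes placed elsewhere, the ciliary *Rab23* and *Rab28* and the ubiquitin ligase adaptor *Rab40c*, had log2 fold changes of −0.09, −0.01 and −0.06, and 0 of the 3 passed, also at an unadjusted p of 0.05 (limma).

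Close relatives were compared within each library, as the difference of their log2 values. Of 10 pairs, 6 had differences that did not overlap between the groups. Among single genes, 51.8% of all those tested did not overlap, and pairs of other genes were not counted. The pairs of *Rab5* genes share members, so they are not independent. The smallest two-sided p of an exact permutation test at this size is 0.1, and with 10 pairs the adjusted p of these 6 was 0.167, so this test cannot reach 0.05 for them. The change of *Rab8a* lay 0.84 below that of *Rab8b* on the log2 scale (standard error 0.08), and the ratio of their mean levels went from 4.53 to 2.54. *Rab7b* exceeded *Rab7a* in its change by 0.58 (standard error 0.05), and the ratio of *Rab7a* to *Rab7b* went from 32.1 to 21.2. *Rab27b* exceeded *Rab27a* by 0.73 (standard error 0.16): *Rab27a* was 1.59 times as high as *Rab27b* with control siRNA and 0.908 times as high with *Xbp1* siRNA. With a pseudocount of 1 the log2 fold changes were closer, 0.79 for *Rab27b* and 0.41 for *Rab27a*.

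Among the *Rab5* genes the change of *Rab5b* lay 0.48 below that of *Rab5c* (standard error 0.04), and that of *Rab5a* lay 0.32 below that of *Rab5c* (standard error 0.07) and 0.16 above that of *Rab5b* (standard error 0.06). For the other 4 pairs the groups overlapped. The difference was 0.12 for *Rab4a* and *Rab4b* (exact p = 0.2, adjusted 0.286), −0.06 for *Rab2a* and *Rab2b* (exact p = 0.8, adjusted 1), and 0.00 and 0.01 for *Rab11a* and *Rab11b* and for *Rab1a* and *Rab1b* (exact p = 1, adjusted 1). The standard errors of these 4 lay between 0.07 and 0.12. How reads that match more than 1 relative were divided is not given in the sources used here.

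Summed over all 41 genes, the Rab mRNA was nearly level: 2370, 2374 and 2415 FPKM with control siRNA against 2319, 2327 and 2319.0 FPKM with *Xbp1* siRNA. The ratio of the means was 0.973, and the groups did not overlap (exact two-sided permutation p = 0.1, the smallest possible). The total thus moved less than many of its members did. The ER-Golgi genes summed to 576, 588 and 623 FPKM against 552, 568 and 567 FPKM, a ratio of 0.944 (exact permutation p = 0.1). The endosomal genes summed to 1483, 1470.4 and 1481 FPKM against 1504, 1481 and 1479 FPKM, with overlap and a ratio of 1.01 (exact permutation p = 0.5). The genes of secretion had the lowest ratio, from 204, 206 and 204 FPKM to 161, 166 and 169.5 FPKM, or 0.809 (exact permutation p = 0.1), and *Rab8a* and *Rab10* hold most of this sum.

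**Figure D4:**
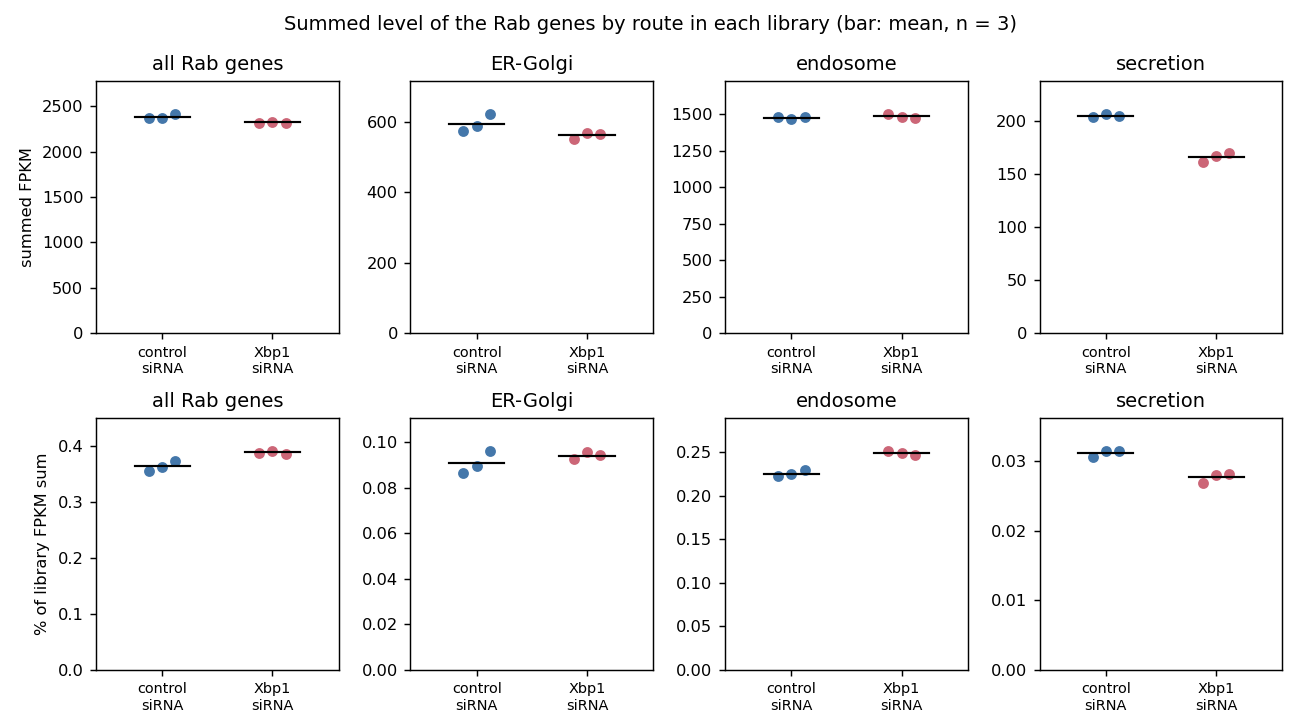
Summed FPKM of all Rab genes and of the genes of each route (upper row). The lower row shows these sums as a percentage of the FPKM sum of the library. There is 1 point per library with the mean as a bar (n = 3 per group), and each axis starts at 0. The sums of secretion lie between 204 and 206 FPKM with control siRNA and between 161 and 169.5 FPKM with *Xbp1* siRNA, while those of endosomal genes overlap.

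These sums depend on the scaling of the libraries. The summed FPKM of all genes was lower with *Xbp1* siRNA, at 0.911 of the control mean. As a share of that sum, the Rab genes held 0.364% ± 0.00901 with control siRNA and 0.389% ± 0.00312 with *Xbp1* siRNA (SD, n = 3, exact permutation p = 0.1). The share of the endosomal genes was 0.225% against 0.249%, that of the genes of secretion 0.0312% against 0.0277%, and the libraries of neither pair of groups overlapped (exact permutation p = 0.1 each). That of the ER-Golgi genes was 0.0908% against 0.0942%, with overlap (exact permutation p = 0.4). So the sum of all Rab genes turns from lower to higher with this scaling, that of the ER-Golgi genes no longer separates the groups, and that of the genes of secretion stays lower. Scaling to equal sums moved the median log2 fold change of all genes from 0.01 to 0.14 and that of the Rab genes to 0.19, and 19 of the 41 Rab genes were then higher and 8 lower at an adjusted p of 0.05 (limma), against 31.7% and 13% of all genes.

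The proteins that load, move and read Rab proteins were taken from lists of their genes. Of 14 genes of prenylation and membrane recycling tested, 3 rose and 2 fell (35.7%, against 40.4% of all genes), with a median log2 fold change of −0.01. *Rabggta*, a subunit of the transferase that adds the prenyl groups, rose from 46.8, 44.2 and 46.4 FPKM to 74.1, 65.7 and 68.6 FPKM (log2 fold change 0.60, standard error 0.05, adjusted p = 1.17e-04, limma). Its partner *Rabggtb* had a log2 fold change of 0.09 (interval −0.03 to 0.21, adjusted p = 0.222, limma). Over the alternatives that of *Rabggtb* ran from 0.04 to 0.22, with an adjusted p as low as 0.0106 (limma). *Gdi2*, a GDP dissociation inhibitor, rose from 71.7, 74.4 and 76.2 FPKM to 97.1, 95.6 and 97.2 FPKM (log2 fold change 0.38, adjusted p = 1.48e-04, limma). *Chml*, an escort protein that presents new Rab proteins to the transferase, fell from 8.11, 9.82 and 9.80 FPKM to 6.57, 6.81 and 6.12 FPKM (log2 fold change −0.50, adjusted p = 0.00591, limma).

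Of 49 exchange factor genes tested, 9 rose and 10 fell (38.8% past the test, against 40.4% of all genes), with a median log2 fold change of 0.01. *Rin2*, an exchange factor of Rab5 proteins, fell from 63.2, 65.0 and 66.3 FPKM to 25.6, 29.4 and 27.9 FPKM, without overlap (log2 fold change −1.23, standard error 0.06, adjusted p = 6.75e-06, limma). *Dennd4b*, of a family of exchange factors for Rab10, fell from 6.10, 6.01 and 5.43 FPKM to 2.40, 2.33 and 3.10 FPKM (log2 fold change −1.14, adjusted p = 4.99e-04, limma). Of 33 GAP genes tested, 14 rose and 7 fell (63.6%, against 40.4% of all genes), with a median log2 fold change of 0.11. *Sgsm2*, a GAP with a RUN domain, rose from 2.81, 2.49 and 2.04 FPKM to 5.31, 4.74 and 5.14 FPKM (log2 fold change 1.03, standard error 0.14, adjusted p = 9.41e-04, limma).

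Of 48 effector genes tested, 9 rose and 7 fell (33.3%, against 40.4% of all genes), and the median log2 fold change was 0.06. The genes in the rest of this paragraph and in the next were chosen after their values were seen, as partners of Rab7, Rab27 and Rab13. *Rilp*, which binds active Rab7 and recruits the dynein motor to late endosomes, rose from 8.61, 9.18 and 9.08 FPKM to 15.1, 14.2 and 15.8 FPKM (log2 fold change 0.74, adjusted p = 1.33e-04, limma). *Mon1b*, of the exchange factor of Rab7, fell (log2 fold change −0.63, adjusted p = 0.00173, limma), while *Mon1a* had −0.15 and did not pass. The Rab7 effectors *Fyco1* and *Rubcn* fell by 0.21 and 0.28 on the log2 scale (adjusted p = 0.0275 and 0.0252, limma), and *Plekhm1* had 0.12 (adjusted p = 0.209, limma). *Tbc1d15*, a GAP of Rab7, fell by 0.25 (adjusted p = 0.00452, limma). The partners of Rab7 thus did not all share the direction of *Rab7a* and *Rab7b*.

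Among the effectors of Rab27, *Sytl2* was at 0.154, 0.0546 and 0.105 FPKM with control siRNA and at 1.598, 0.888 and 1.42 FPKM with *Xbp1* siRNA (adjusted p = 5.71e-04, limma). Its control values are near the pseudocount of 0.1 FPKM. Multiplied by the relative depth of each library, which puts them in units of reads, they stood at 2.997, 1.000 and 1.999 times the lowest of them and those with *Xbp1* siRNA at 31.9, 17.0 and 32.1 times, so the control level may rest on 1 to 3 reads in a library, and a fold change is not given. *Sytl4*, which acts at secretory granules, rose from 3.19, 2.38 and 1.84 FPKM to 5.02, 3.64 and 4.56 FPKM (log2 fold change 0.83, adjusted p = 0.0176, limma). *Exph5* fell from 8.25, 9.59 and 10.2 FPKM to 4.71, 5.24 and 5.38 FPKM (log2 fold change −0.85, adjusted p = 5.69e-04, limma), and *Mlph*, which links Rab27a to myosin, had −0.05 (interval −0.57 to 0.47). *Micall2*, an effector of Rab13 at cell junctions, rose from 2.79, 2.51 and 1.97 FPKM to 5.52, 4.66 and 4.39 FPKM (log2 fold change 0.98, adjusted p = 0.00226, limma), and its relative *Micall1* fell by 0.33 on the log2 scale (adjusted p = 6.70e-04, limma).

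For comparison, another family of small GTPases was counted in the same fit. Of 25 genes of the ARF, ARL and SAR1 family, 4 rose and 8 fell (48%, against 40.4% of all genes), with a median log2 fold change of −0.06, and *Arl9* fell by 1.51 on the log2 scale (adjusted p = 1.10e-04, limma). The difference between this family and the Rab genes was not tested.

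**Figure D5:**
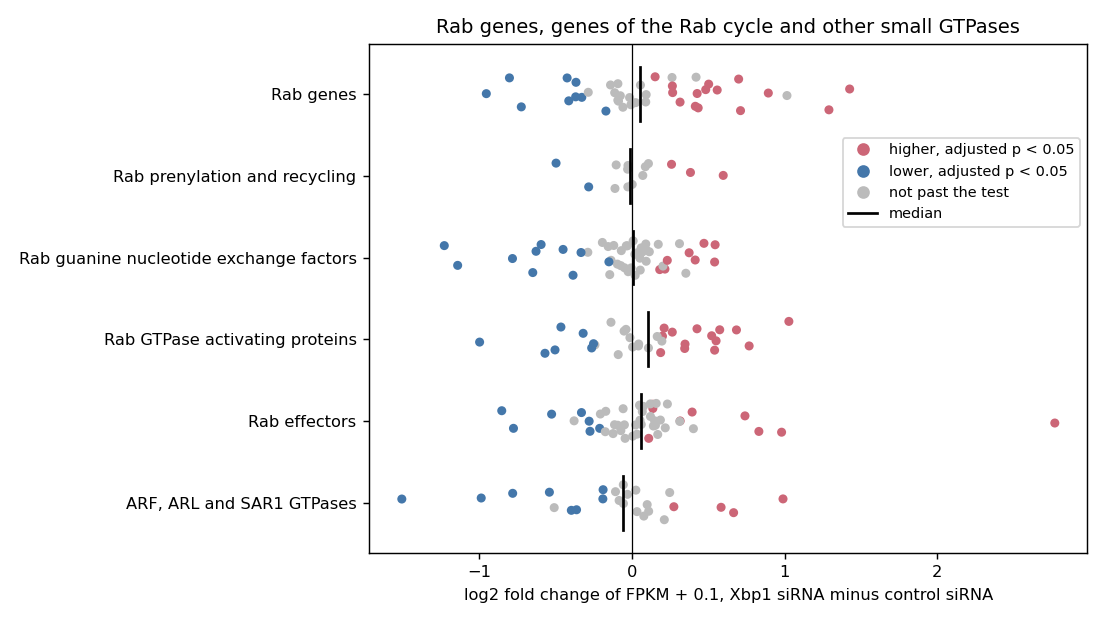
Log2 fold change of FPKM + 0.1, *Xbp1* siRNA minus control siRNA, of the Rab genes, of 4 lists of Rab cycle genes and of another small GTPase family, with 1 point per gene and the median as a line. Medians lie between −0.06 and 0.11, and the point farthest to the right, among the effectors, is *Sytl2*, whose fitted value depends on the pseudocount.

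The remaining 15 Rab symbols lay under the minimum and were not tested. Of these, 9 were listed at 0 in all 6 libraries, among them *Rab3b* and *Rab3c* of regulated exocytosis, *Rab9b*, *Rab15*, *Rab19*, *Rab33a*, *Rab36*, *Rab39a* and *Rab44*. Just under the minimum were *Rab39b* with a mean of 0.0836 FPKM and *Rab40b* with 0.0810 FPKM, followed by *Rab26* with 0.0522 FPKM, *Rab6b* with 0.0302 FPKM, *Rab38* with 0.0118 FPKM and the epithelial *Rab25* with 0.0089 FPKM. The nearest gene inside it was *Rab37* with 0.849 FPKM.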

How the data were processed

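For each library the authors deposited 1 table of normalized expression in FPKM by gene symbol. Per the labels, total RNA was made into stranded mRNA libraries, and the submitters' processing notes name HISAT2 2.1.0 and Cuffdiff 2.2.1. Neither the genome build nor the annotation is given in the sources used here, so no coordinates or sequences are printed. The methods of the study name a count model, which was not used, since FPKM are not counts.

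Conditions were compared on log2(FPKM + 0.1) by lmFit and eBayes of limma 3.58.1 (with an intensity trend, in R 4.3.3) over the 14361 entries with a mean of at least 0.1 FPKM, and p-values were adjusted over all of them by the Benjamini-Hochberg method. Rose, fell, higher and lower at an adjusted p under 0.05 refer to this test, which was tested on simulated data. A fold change on the log2(FPKM + 0.1) scale understates the change of low genes. Single sums and pairs were compared with exact permutation tests. Reads were recovered where each FPKM of a gene was a whole multiple of 1 common step, after relative depth was taken into account (within 0.01 reads plus 4e-06 per read), as for 21 of the 41 Rab genes. They cover counting error only.

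The members, routes and gene lists were chosen with earlier results of these data known. Full statistics are given for Rab genes past the test with a log2 fold change of at least 1 in size, the 10 largest changes past the test, Rab genes linked to exosome release, *Rab1a*, *Rab1b*, *Rab2a*, *Rab6a* and the 5 of highest mean FPKM. From the lists, genes past both limits with a mean of at least 1 FPKM and the genes of a GDP dissociation inhibitor, an escort protein and the prenyl transferase are given. A few other genes of the lists are not reported here. *Chm* was not found among the symbols. All 41 Rab symbols were matched to a RefSeq gene table (assembly CriGri-PICRH), used for names only.

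Other settings tried were a pseudocount of 1 or 0.01, a minimum mean of 1 FPKM or none, median-ratio scaling, quantile normalization, eBayes without trend, the replicate number as a block, and leaving out each library. Scaling to equal column sums was added after seeing the data. Deviations from the group means of libraries with the same replicate number correlated across genes with r of −0.029, −0.027 and −0.012, so the numbers were not taken as pairs. Tables and permutation tests were made in Python 3.11.15 (scipy 1.17.1, numpy 2.4.6, pandas 2.3.3).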

Additional observations from a re-analysis of the deposited data

How the results depend on the processing

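Of 614 values of the 41 Rab genes under alternatives, 579 kept their side of an adjusted p of 0.05 (limma). Significance was lost by 24 and gained by 10 without a change of sign. Another 1 reversed and passed the limit: *Rab6a*, with equal column sums, at 0.12. The 579 include values not past the test in either fit whose sign changed, such as *Rab1a* with quantile normalization (0.03). Of the 24 Rab genes past the test, 20 stayed past it under each alternative run, and the others (*Rab4b*, *Rab5a*, *Rab20*, *Rab27a*) kept their sign. With the replicate number as a block, 15 Rab genes were higher and 9 lower, but *Rab27a* lost significance (adjusted p = 0.0524, limma), *Rab37* gained it (adjusted p = 0.0292) and 1 gene of prenylation and recycling was lower.

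With the fold limit, 1 Rab gene was higher with a pseudocount of 1 and 4 with equal column sums. Without *Xbp1* siRNA replicate 3, 1 Rab gene, *Rab8a*, was lower, so the count ran from 0 to 1 over the libraries left out. The median log2 fold change of the Rab genes was 0.084 with quantile normalization and 0.190 with equal column sums, and 0.0042 to 0.0971 with 1 library left out. It was lowest without control replicate 3, highest without control replicate 1 and 0.0239 without *Xbp1* siRNA replicate 1.

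Equal column sums gave 6 higher and 1 lower of 14 genes of prenylation and recycling and 15 higher of 49 exchange factors. They gave 22 higher and 4 lower of 48 effectors and 10 higher and 5 lower of 25 ARF family genes. With this scaling 31.7% of all genes were higher and 13% lower. The ratio of summed FPKM turned to 1.07 for all Rab genes and 1.04 for ER-Golgi genes. Quantile normalization gave 7 higher of the 25 ARF family genes. For Rab cycle genes with the fold limit, 1 was higher with a pseudocount of 1, with the filter at a mean of 1 FPKM (where fewer genes were tested) and with quantile normalization, and 1 was lower with a pseudocount of 1.

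Leaving out 1 library gave 1 to 2 lower genes of prenylation and recycling (2 only without control replicate 1), 5 to 11 higher effectors (5 without *Xbp1* siRNA replicate 1 or 3) and 1 to 4 higher Rab cycle genes with the fold limit (1 without control replicate 3 or *Xbp1* siRNA replicate 1, 4 without control replicate 1). Except where stated, the cause was not tested. The share of all genes under an alternative was counted only for equal column sums, at the limit on adjusted p alone. Among the 21 Rab genes with recovered reads, *Rab20* and *Rab27b* had the fewest, 52 to 98 and 33 to 125 in a library, and for genes without recovered reads the depth behind a value is unknown.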
